A study of Mus musculus with 8 samples.

Results

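The 5′UTR m6A peaks of mouse embryonic stem cells (ESCs) were examined, that is, the sites of N6-methyladenosine (m6A) enrichment that lie between the first base of an mRNA and its start codon. A peak was taken when the middle base of its exon blocks lay in the 5′UTR of the gene's coding transcript with the longest coding sequence, on the same strand, and more than 200 nt from the stop codon. Of 31896 peaks in both lists, 1088 met this rule, 613 of 18895 in the DMSO and 475 of 13001 in the Dox list. The peaks came from methylated RNA immunoprecipitation sequencing (MeRIP-seq), in which fragments of poly(A) RNA are pulled down with an antibody against m6A and set against unselected input RNA. All cells were of the E14 line and, per the study's text, carried a doxycycline (Dox)-inducible Dux transgene and a tdTomato reporter driven by the promoter of the endogenous retrovirus MERVL. They were given the solvent DMSO or Dox for 24 h, with 2 IP and 2 input libraries per treatment, 8 libraries in all. The transcription factor Dux turns ESCs into cells with features of the 2-cell embryo (2C-like cells), and the comparison asks how m6A in 5′UTRs differs once that change has been set off. Whether the line was 1 clone, and how many of the Dox-treated cells were 2C-like, was not stated in the labels, and the transgene, not the cell's own Dux gene, was switched on by Dox. The deposited data were 1 peak list per treatment, with the replicates already combined, so that no value below has a replicate error and no test between treatments was made. Intervals are 95% intervals of counting error, and peaks are not replicates.

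In mammalian mRNA, m6A is written by a METTL3 and METTL14 complex at adenosines in the sequence context called DRACH, where D stands for A, G or T, R for A or G, and H for A, C or T, and GGAC is the core of its commonest form. Most m6A lies in coding sequence and around the stop codon, and the 5′UTR holds few sites. The 5′UTR is the stretch scanned by the small ribosomal subunit before translation starts, and it can hold upstream ATG triplets that begin short upstream reading frames. Antibodies against m6A also bind N6,2′-O-dimethyladenosine (m6Am), a mark on mRNAs whose first transcribed base is an adenosine, so that signal at the very start of a transcript can come from either mark.

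Windows of 25 nt are shown from peaks with the best scores of each list. The score is the authors' value for a peak, read as −log10 of its p-value. It ranks the evidence for a peak and is not a measure of how much of the RNA was methylated. The RNA level of these genes was not analysed here. Each window is centred on the adenosine of the GGAC nearest to the peak's middle, on that of another DRACH where there was no GGAC, and on the middle base where neither was in the transcript's part of the peak. The windows of Rpl36al and Rpl41 are instead the first 25 bases of the annotated transcript, because their middle bases lay too near its start. Capitals mark only the GGAC or DRACH on which a window is centred, and any further motif in it is in lower case. Letters are 5′ to 3′ on the transcript's strand, and positions are those of GRCm38 (mm10).
Ptma, both lists, chr1:86526810-86526834, plus strand: cctccagcgcGGACtccggcagctc
Ranbp1, both lists, chr16:18248661-18248685, minus strand: agggaagagcGGACgggcgggagcg
Hmgb1, Dox list, chr5:149050727-149050751, minus strand: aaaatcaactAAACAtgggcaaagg
Rpl36al, both lists, chr12:69183989-69184013, minus strand: tgagtcggggatcgcggcggccggt
Hsp90aa1, both lists, chr12:110696259-110696283, minus strand: cgtcacgtctcgtgcgtgttcattc
Actg1, DMSO list, chr11:120348435-120348459, minus strand: ttgccgctcctccgtcgccgccgcg
Rpl41, Dox list, chr10:128549078-128549102, minus strand: gcgccatcttccttggttagtcgcg
The windows of Rpl36al, Hsp90aa1, Actg1 and Rpl41 held no capitals, because their peaks held neither GGAC nor DRACH. In Ranbp1 the GGAC was followed by G, which is not a DRACH. The Hmgb1 window ran over the start codon, and 11 of its bases were coding.

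Windows of the best-scoring list-only peaks, which no peak of the other list overlapped, are shown for the 6 best DMSO peaks and for those 4 of the 6 best Dox peaks that had a near-identical locus elsewhere in the genome.
Zscan4d, Dox list, chr7:11166096-11166120, minus strand: gaagttcactGGACaaagaggtgag
Zscan4b, Dox list, chr7:10904987-10905011, minus strand: ctgggcttcttggcatcacccttga
Gm4027, Dox list, chr12:87618907-87618931, plus strand: ataggcaagaGGACatccgacctag
BB287469, Dox list, chr12:87816616-87816640, plus strand: ataggcaagaGGACatccgacctag
Cbx3, DMSO list, chr6:51470721-51471821 (spliced), plus strand: tgagcatcggagcggtgaactcttc
Alpl, DMSO list, chr4:137796252-137796276, minus strand: gagccggaacAGACCctccccacga
Ddx23, DMSO list, chr15:98662826-98662850, minus strand: ccgcgttaggcggttcaggcgcggg
Anapc13, DMSO list, chr9:102626334-102626358, plus strand: gcgcgcgcagtgggtaagggttttt
Prr3, DMSO list, chr17:35980192-35980216, minus strand: cttcttcttctgcttcacgctgaag
Spred2, DMSO list, chr11:19924530-19924554, plus strand: gcactacccgGAACCctgattggcc
Of the 6 DMSO peaks, only those of Alpl and Spred2 held a DRACH, and none held GGAC. In the Cbx3 window, 19 of the 25 bases lay in the peak, and the DRACH in lower case ran past them. The windows of Gm4027 and BB287469 were identical letter for letter. The peaks around these 2 windows, and those of Zscan4d and Zscan4b, each had at least 1 other locus in the genome with 98% identity or more over 90% of the peak, so that which gene copy the signal came from is uncertain. The only GGAC of the Zscan4b peak straddled the annotated transcript start and is therefore not in its window.

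The assignment to the 5′UTR was checked against all annotated transcripts. The middle base of 604 DMSO peaks (98.5% of 613) and of 471 Dox peaks (99.2% of 475) was 5′UTR in every coding transcript that covered it. The peaks were not wholly confined to the 5′UTR. In the DMSO list 349 peaks (56.9%) and in the Dox list 269 (56.6%) lay entirely inside it, 26.4% and 27.8% reached into the coding sequence, and 24.8% and 24.4% had bases outside the annotated transcript. The start codon is the boundary of the rule. Among DMSO peaks whose middle lay 1 to 25 nt before it (n = 102), 59.8% were overlapped by a Dox peak and 38.2% held GGAC, and among those centred on the first 25 coding bases (n = 119), which were not taken, the shares were 59.7% and 39.5%. The same shares were 81.6% and 43.4% inside the boundary (n = 76) and 80.7% and 46.6% outside it (n = 88) in the Dox list.

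The 5′UTR held a small share of all peaks on coding transcripts in both treatments. It was 3.43% (3.17 to 3.70%) of 17882 peaks with DMSO and 3.84% (3.52 to 4.20%) of 12363 with Dox. There were 1.29 times as many 5′UTR peaks in the DMSO list as in the Dox list (1.14 to 1.45), against 1.49 (1.44 to 1.53) for coding peaks, 1.32 (1.26 to 1.38) for peaks at the stop codon and 1.56 (1.46 to 1.66) for peaks in the rest of the 3′UTR. Thus, the count of 5′UTR peaks was lower after Dox, by a ratio whose interval lay under the point estimate for coding and 3′UTR peaks and included that for stop codon peaks. This ratio depended on the size of the lists. With the 13001 best-scoring peaks of each list, 419 DMSO and 475 Dox peaks lay in 5′UTRs, and the ratio was 0.882 (0.774 to 1.01), where the ratio over all peaks is 1 by construction. Read depth was not analysed here, and its part in the number of peaks was not tested.

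Along the longest-coding transcript, more 5′UTR peaks were centred near the start codon than near the transcript start. The middle base of a DMSO peak was a median of 109 nt upstream of the start codon (interquartile range 39 to 245) and that of a Dox peak 117 nt (41.5 to 249). The middle base lay in the last 100 nt before the start codon in 48.1% of DMSO and 44.2% of Dox peaks, and in the first 100 nt of the transcript in 19.6% and 21.7%. The rule bears on this contrast. A peak may run past the start codon and still be centred before it. A long peak that starts at the first base is centred beyond the first 100 nt. Of peaks centred in the last 100 nt only, 52.9% (DMSO) and 59.6% (Dox) reached into the coding sequence. By any base, 37.5% and 39.6% of all 5′UTR peaks touched the first 100 nt. When the distance of the middle base was taken to the nearest annotated start of any transcript of the gene, 40.6% (36.8 to 44.6%) and 40.8% (36.5 to 45.3%) lay within 100 nt of a start. This count took in both sides of every annotated start that fell on the chosen transcript. The start codon share took in only the upstream side of a single codon, so that these shares of the 2 ends are not like measures. Peaks centred over 100 nt from both ends made up 41.6% and 43.4%. In the 288 DMSO peaks on 5′UTRs of at least 400 nt, where both ends can be told apart, 29.9% were centred in the last 100 nt and 7.29% in the first 100 nt. Of 220 Dox peaks on such 5′UTRs, 57 (25.9%) and 22 were centred there.

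**Figure D1:**
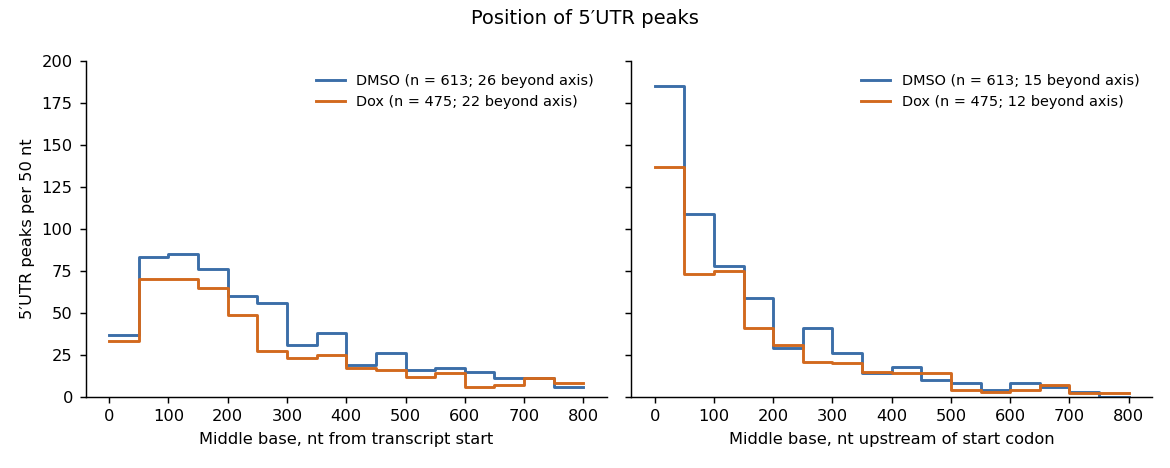
Number of 5′UTR peaks per 50 nt by the position of their middle base from the transcript start (left) and upstream of the start codon (right), for 613 DMSO and 475 Dox peaks. In both lists the counts are highest in the 50 nt next to the start codon and lower in the first 50 nt of the transcript than in the next 50 nt.

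The first transcribed base itself was rarely inside a peak. It was held by 53 DMSO peaks (8.65%) and 43 Dox peaks (9.05%), while 37.5% and 39.6% of the peaks had any base in the first 100 nt. The transcripts whose first base lay in a peak began with A in 11 of 53 cases in the DMSO list (20.8%, at most 33.5%) and in 7 of 43 in the Dox list (16.3%, at most 30.0%). Among all genes with a peak anywhere, 24.6% and 24.5% of the transcripts began with A. The annotated first base need not be the one used in these cells.

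**Figure D2:**
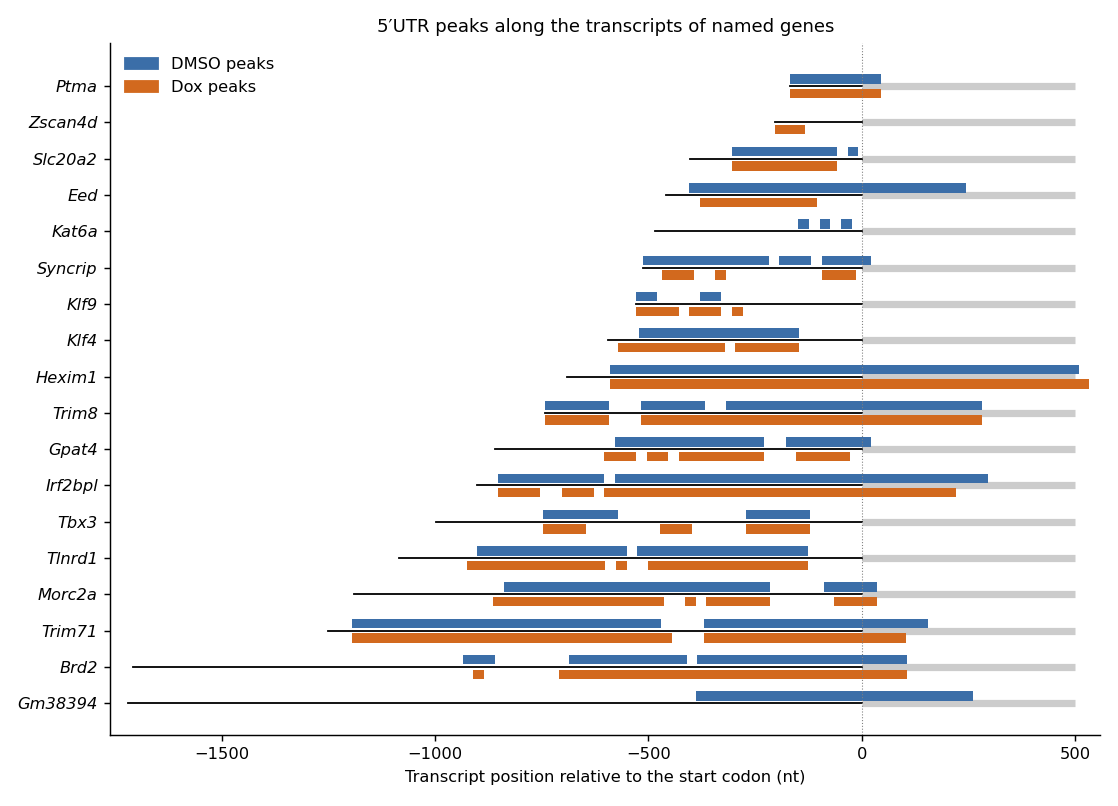
DMSO (blue) and Dox (orange) 5′UTR peaks along the transcripts of 18 named genes, with 5′UTRs as black lines ending at the start codon (position 0) and the following 500 nt in grey; peaks centred in other regions are not drawn. Long 5′UTRs such as those of Trim71, Brd2 and Tlnrd1 carried several peaks, and the short 5′UTR of Ptma lay wholly within 1 peak in each list.

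Genes with a long 5′UTR carried 5′UTR peaks more often. The share of peak-carrying genes that had one was 2.08% for 5′UTRs of 1 to 99 nt (31 of 1492 genes, DMSO list) and 37.1% for those of 800 nt and over (59 of 159). In the Dox list the shares were 2.01% (24 of 1192) and 37.7% (49 of 130). The classes in between were in order in both lists. The median 5′UTR of carriers was 363 nt in the DMSO list and 351 nt in the Dox list, against 169 and 171 nt for genes that had peaks elsewhere only. Peaks covered 30.9% of the 5′UTR bases of the DMSO carriers and 31.7% of those of the Dox carriers.

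**Figure D3:**
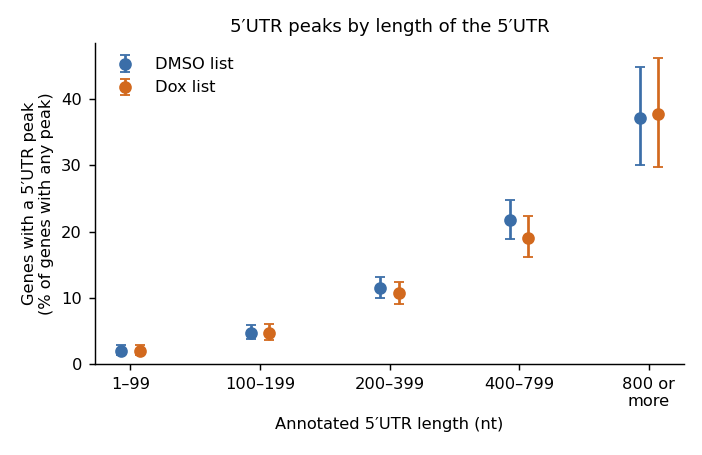
Share of genes with any peak that had a 5′UTR peak, in percent, by annotated length of the 5′UTR, with 95% Wilson intervals. The share was about 2% for the shortest class and 37.1% (DMSO) and 37.7% (Dox) for the longest.

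The 5′UTR peaks were rich in G and C and held DRACH less often than peaks of other regions. Their median GC content was 66.7% in the DMSO and 68.0% in the Dox list, against 52.4% and 54.0% for coding peaks. GGAC was found in 324 of 613 DMSO peaks (52.9%, 48.9 to 56.8%) and 248 of 475 Dox peaks (52.2%, 47.7 to 56.7%). DRACH was found in 69.2% and 67.4%, less often than in coding peaks (84.6% and 85.2%), stop codon peaks (89.8% in each list) and 3′UTR peaks (86.2% and 88.2%). Because motif content rises with length, peaks of 75 to 150 nt were compared. There, the 5′UTR share with GGAC was 8.28 percentage points above that of coding peaks in the DMSO list (1.59 to 14.8) and 9.35 points in the Dox list (1.84 to 16.6). At this length, no GGAC difference was detectable from stop codon peaks, at -1.32 points (-8.35 to 5.59) and 0.834 points (-7.01 to 8.44), or from 3′UTR peaks, at -1.93 (-9.19 to 5.23) and -3.18 points (-11.4 to 4.85). The difference from 3′UTR peaks varied with length. Over 150 nt it was 8.51 points (2.29 to 13.3, DMSO) and 7.27 points (0.00863 to 12.9, Dox). At 26 to 74 nt it was 10.3 points (-0.446 to 21.5, DMSO) and -14.1 points (-25.3 to -0.846, Dox). In DMSO peaks of 25 nt or less, the GGAC difference from coding peaks was 1.03 points (-4.33 to 8.40). It was 13.1 points (3.75 to 23.4) at 26 to 74 nt and 8.44 points (2.62 to 12.5) over 150 nt. In the Dox list these were -1.89 (-7.66 to 6.63), -2.77 (-11.7 to 8.91) and 5.72 points (-1.0012 to 10.3), none detectable. Over all lengths, the GGAC difference from stop codon peaks was -9.01 points (-13.2 to -4.81, DMSO) and -10.4 points (-15.2 to -5.67, Dox). At 75 to 150 nt, the difference from coding peaks in the share with DRACH was -17.4 points (-23.5 to -12.1) in the DMSO list and -14.1 points (-20.7 to -8.57) in the Dox list.

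To set the motifs against the sequence around them, the 5′UTR bases inside peaks were compared with the remaining bases of the same 5′UTRs. In the 521 DMSO carriers, GGAC occurred 8.17 times per 1000 nt inside peaks and 4.95 times outside, a ratio of 1.65 (1.48 to 1.84). In the 396 Dox carriers the densities were 7.97 and 4.82 per 1000 nt, a ratio of 1.65 (1.46 to 1.88). GTCC, the same letters on the opposite strand, did not show this, with ratios of 0.827 (0.714 to 0.955) and 0.875 (0.741 to 1.03). All DRACH sites gave 1.28 (1.19 to 1.37) and 1.26 (1.16 to 1.37). Upstream ATG triplets were sparser inside the peaks, at 4.54 against 5.56 per 1000 nt in the DMSO list (ratio 0.817, 0.717 to 0.929) and 3.85 against 5.04 in the Dox list (ratio 0.764, 0.650 to 0.895). The GC content was 65.2% inside and 63.4% outside in the DMSO list and 66.2% and 63.9% in the Dox list. The 2 lists share most of their carriers, so that the second set of ratios is not independent of the first.

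**Figure D4:**
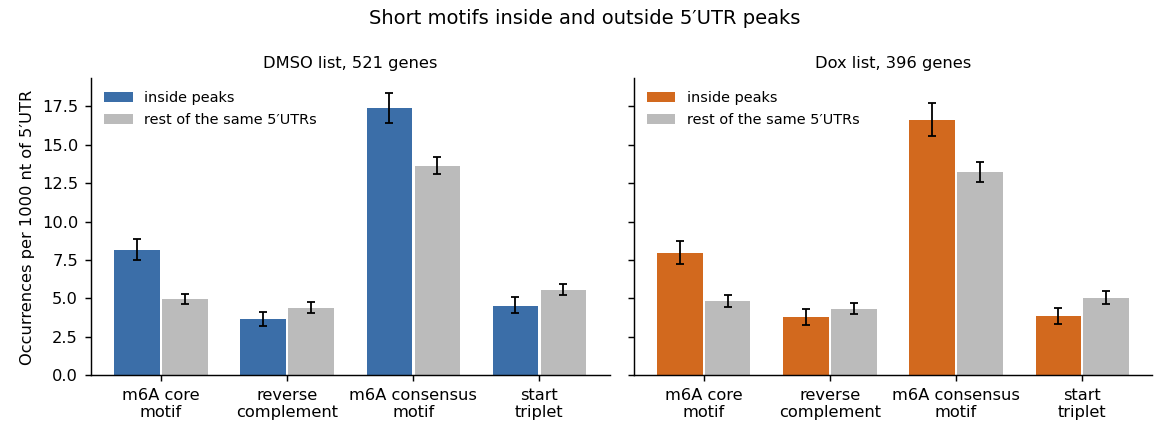
Occurrences per 1000 nt of 5′UTR of the m6A core motif GGAC, its reverse complement GTCC, the consensus DRACH and the triplet ATG, inside 5′UTR peaks (coloured bars) and in the rest of the same 5′UTRs (grey bars), with 95% Poisson intervals. GGAC stood at 8.17 against 4.95 in the DMSO list and 7.97 against 4.82 in the Dox list, and its reverse complement was no higher inside than outside.

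The motif content differed along the 5′UTR. Peaks centred over 100 nt from both ends held GGAC in 61.6% of 255 DMSO peaks (55.5 to 67.3%) and 62.1% of 206 Dox peaks (55.3 to 68.5%). Peaks centred in the first 100 nt only held it in 41.3% of 63 (30.0 to 53.6%) and 22 of 59 (37.3%), and peaks on 5′UTRs so short that both ends were within 100 nt held it in 29.8% of 57 and 22.7% of 44. The median lengths of these groups were 125, 75 and 50 nt in each list, and length moves with the motif share as above.

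The best-scoring peaks were not those with the most motifs. When the peaks of a list were put in 4 groups of equal size by score, GGAC was most frequent in the group below the top, in 98 of 153 DMSO peaks (64.1%, 56.2 to 71.2%) and 88 of 119 Dox peaks (65.4 to 81.0%). In the top group it was 54.9% of 153 (47.0 to 62.6%) and 53.4% of 118 (44.4 to 62.1%), and in the lowest 35.1% of 154 and 28.6% of 119. The DMSO intervals of the top group and the group below it overlapped. Median peak lengths of the top, second and lowest groups were 125, 125 and 50 nt in the DMSO list and 125, 150 and 50 nt in the Dox list. Length moves with the motif share, and score was not separated from it. The top group lay nearer the transcript start, where 49.0% of the DMSO and 57.6% of the Dox peaks had a base in the first 100 nt, against 29.2% and 31.9% of the lowest group. Of the 10 best-scoring peaks, 4 held GGAC in each list, and 3 in the DMSO and 5 in the Dox list held DRACH. Not all of these motifs lay in the 5′UTR. The GGAC nearest the middle of the Mybl2 peak (DMSO list) was in the coding sequence. The Atp5g3 peak, in both lists, held neither motif in the part that lay on the chosen transcript.

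The best-scoring 5′UTR peaks lay on genes of basic cell functions, and several genes were among the top 10 peaks of both lists. In both, the best was a 225-nt peak that covered the whole 5′UTR of Ptma, encoding the acidic nuclear protein prothymosin alpha (chr1:86526726-86526950), with a score of 102 in the DMSO and 113 in the Dox list. This peak had 1 near-identical locus elsewhere. A 50-nt peak over the annotated first base of Rpl36al, a ribosomal protein gene, scored 69.0 and 67.5. A spliced peak of 175 nt on Atp5g3, a subunit of the mitochondrial ATP synthase, scored 59.8 and 65.1, and one of 150 nt on Ranbp1, which binds the nuclear transport GTPase Ran, scored 43.4 and 34.7. Hsp90aa1, an HSP90 chaperone gene, scored 36.3 and 35.8 with a peak just upstream of the start codon. Each of these peaks had the same blocks in both lists.

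The other top peaks of the DMSO list lay on Mybl2 (43.1), a cell cycle transcription factor, Myl12a (37.9), a myosin light chain, Tmsb10 (36.6), an actin-binding thymosin, and Actg1 (32.7), a cytoplasmic actin, and all 4 were overlapped by a Dox peak. Those of the Dox list lay on Rpl41 (106), a ribosomal protein gene, Zscan4d (37.3), Hmgb1 (36.8), a chromatin protein, and Dynll1 (35.1), a dynein light chain. The Rpl41 peak was 25 nt long and straddled the annotated transcript start, with 15 of its bases inside the printed window. It overlapped a DMSO peak that lay on no chosen coding transcript, and it had 3 near-identical loci, so that its source is uncertain. The Hmgb1 peak overlapped a DMSO peak centred in the coding sequence. Zscan4d was the only one of the 10 with no DMSO peak over it.

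The longest 5′UTR peak of both lists lay on Hexim1, an inhibitor of the elongation factor P-TEFb, and spanned 1100 nt in the DMSO list and 1125 nt in the Dox list, much of it coding. Trim71, an RNA-binding regulator of early development, had a peak of 725 nt in the DMSO list and 750 nt in the Dox list that lay upstream of the start codon, and Irf2bpl had one of 875 and 825 nt. On Brd2, a bromodomain protein, the longest DMSO 5′UTR peak measured 525 nt and the Dox peak 850 nt, and this Dox peak overlapped 2 DMSO peaks. On Trim8 a Dox peak of 800 nt overlapped DMSO peaks of 150 and 600 nt. The reverse was seen on Klf4, where a DMSO peak of 375 nt overlapped Dox peaks of 250 and 150 nt. Eed, a subunit of the Polycomb complex PRC2, had a DMSO peak of 650 nt that overlapped 1 Dox peak in the 5′UTR and 1 in the coding sequence, and Gm38394 one of 650 nt that overlapped a coding Dox peak.

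Of the genes with 5′UTR peaks, 83 in the DMSO and 60 in the Dox list had 2 or more. Syncrip, an RNA-binding protein of the hnRNP family, had 4 in the DMSO list, of 300, 100, 75 and 50 nt. A further 7 genes had 3, among them Slc20a2, a phosphate transporter, Trim8, Brd2 and Kat6a, a histone acetyltransferase whose 3 peaks were of 25 nt each and not overlapped by a Dox peak. In the Dox list Gpat4, an enzyme of glycerolipid synthesis, and Morc2a, a chromatin ATPase, had 4 each, and 15 genes had 3, among them Tbx3, Tlnrd1 and Klf9.

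The treatments were then compared peak by peak, and a peak was called shared when the other list had a peak on that strand with at least 1 base in common. In the DMSO list 374 of 613 5′UTR peaks were shared (61.0%, 57.1 to 64.8%) and 239 were list-only (39.0%), against 43.0% of all DMSO peaks. In the Dox list 404 of 475 were shared (85.1%, 81.6 to 88.0%) and 71 were list-only (14.9%), against 7.31% of all Dox peaks. The shares depended on the size of the lists. With the 13001 best-scoring peaks of each, 74.7% of the DMSO (70.3 to 78.6%) and 72.0% of the Dox 5′UTR peaks (67.8 to 75.8%) were shared, so that the order of the lists turned, within counting error. With the full lists, DMSO 5′UTR peaks were shared more often than coding peaks, by 5.91 percentage points (1.88 to 9.81), and than 3′UTR peaks, by 8.96 points (4.57 to 13.2). They were shared less often than stop codon peaks, with a difference of -5.43 points (-9.60 to -1.37) that did not hold at matched length, as given below. Dox 5′UTR peaks were shared less often than peaks of the other regions. Their difference was -7.87 points (-11.4 to -4.89) from coding peaks, -9.23 points (-12.8 to -6.18) from stop codon peaks and -7.98 points (-11.7 to -4.75) from 3′UTR peaks. At equal list sizes the differences in the DMSO list were 6.79 points (2.29 to 10.9) from coding and -5.49 points (-10.1 to -1.29) from stop codon peaks. From 3′UTR peaks the DMSO difference was then 2.80 points (-2.11 to 7.36) and no longer detectable. In the Dox list the differences were -10.6 (-14.9 to -6.62), -9.99 (-14.4 to -5.90) and -9.15 points (-13.7 to -4.81) from coding, stop codon and 3′UTR peaks. Without peaks that had a near-identical locus, 86.5% of the Dox 5′UTR peaks were shared.

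Peak length moves with sharing, and in the Dox list the difference was present in some length classes. Of Dox peaks of 75 to 150 nt, 10.3% were list-only in the 5′UTR (6.71 to 15.6%), against 4.60% in coding sequence, 4.46% at the stop codon and 3.99% in the 3′UTR. Of those of 25 nt or less, 40.9% were list-only (31.4 to 51.0%), against 20.9%, 23.2% and 21.5%. At 26 to 74 nt the difference in the shared share was -4.64 points (-15.7 to 3.15) from coding peaks and -7.91 points (-19.4 to 1.23) from 3′UTR peaks, neither of which was detectable at this number of peaks, and -9.13 points (-20.3 to -0.734) from stop codon peaks. In Dox peaks over 150 nt no such difference was detectable, with 1.53% (0.420 to 5.4%) against 1.65% in coding sequence. In the DMSO list the order was the opposite at 75 to 150 nt, where 36.4% of 5′UTR peaks (30.4 to 42.8%) and 54.0% of coding peaks were list-only. The shared share also differed along the 5′UTR in the Dox list, where peaks centred in the first 100 nt only were shared in 72.9% of 59 cases (60.4 to 82.6%), against 88.8% of 206 (83.8 to 92.4%) over 100 nt from both ends.

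**Figure D5:**
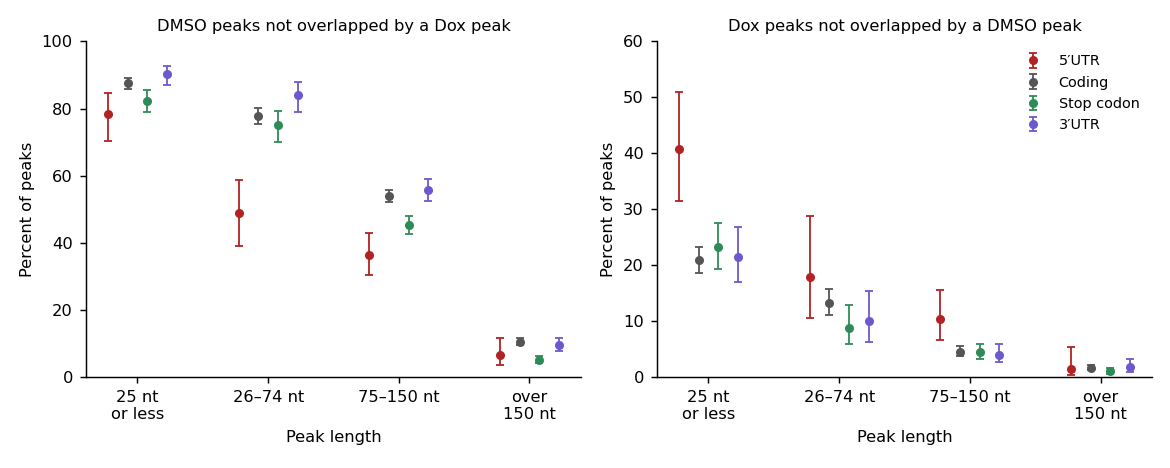
Share of DMSO peaks (left) and Dox peaks (right) not overlapped by a peak of the other list, in percent, by peak length and region, with 95% Wilson intervals; the vertical axes differ. Up to 150 nt the 5′UTR points lie below the others in the DMSO list and above them in the Dox list, with overlapping intervals in some classes.

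The 380 pairs of overlapping DMSO and Dox 5′UTR peaks were close in extent. Identical blocks were found in 93 pairs (24.5%), against 12.3% of 11773 such pairs over all regions. The DMSO peak was the longer in 203 pairs (53.4%), against 73.1% over all regions, the Dox peak in 81, and 96 were of equal length. Neither contrast with all regions was matched for length. DMSO peaks had a median of 100 nt in the 5′UTR and 125 nt over all regions, so that the contrasts cannot be called particular to the 5′UTR. Ranked by score within its own list, the Dox peak stood at the higher percentile in 167 pairs. The median Dox minus DMSO difference was -1.89 percentile points (interquartile range -25.1 to 13.2), against -8.22 over all pairs.

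By gene, 521 carried a 5′UTR peak in the DMSO list, 396 in the Dox list, 328 in both and 589 in either. These counts depended on the longer DMSO list. With the 13001 best-scoring peaks of each list, 377 genes carried one in the DMSO list, 396 in the Dox list and 278 in both. The matching gene overlap for other regions is not given here, so that the non-overlap cannot be called particular to the 5′UTR. In the full lists, of the 193 genes with a 5′UTR peak in the DMSO list only, 145 had a Dox peak on the gene outside the 5′UTR class and 48 had none. Such a Dox peak may overlap the DMSO 5′UTR peak itself, as on Alkbh5 and Ythdf2. Of the 68 in the Dox list only, 62 had a DMSO peak outside the 5′UTR class and 6 had no DMSO peak. These 6 were 4931428L18Rik, Srsf7, Fthl17d, Eloc, Epo and Rps27l. They are named here after their values were seen, and their best percentile was 65.1. A 5′UTR peak was the only peak of the gene in 52 DMSO carriers (9.98%) and 51 Dox carriers (12.9%). Carriers also had a coding peak in 76.8% of cases in the DMSO and 70.2% in the Dox list, against 65.4% and 61.9% of genes whose peaks lay elsewhere only. For stop codon peaks the shares were 61.6% and 55.8% against 61.4% and 58.7%.

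The best-scoring list-only peaks differed in kind between the lists. In the DMSO list they lay on Cbx3, which encodes the heterochromatin protein HP1γ (score 18.1), Alpl, an alkaline phosphatase (18.1), Ddx23, a spliceosomal helicase (17.8), Anapc13, a subunit of the anaphase-promoting complex (16.3), Prr3 (16.0) and Spred2, an inhibitor of ERK signalling (15.6). They were 50 to 100 nt long, stood between percentiles 91.0 and 95.2, held no GGAC and had no near-identical locus. On Cbx3 and Prr3, no Dox peak was found anywhere. In the Dox list the 6 peaks lay on Zscan4d (37.3), Gm4027 (21.5 and 16.9), Zscan4b (20.2), BB287469 (15.2) and Actg1 (14.3), and 4 of the 6 had a near-identical locus. The list-only Actg1 peak was 25 nt long and lay at the start codon, apart from the shared 75-nt peak of this gene.

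Among 2C genes, which are switched on in the 2-cell embryo and in 2C-like cells, 15 had a Dox peak, and 3 of these had one in the 5′UTR, Zscan4d, Zscan4b and Zscan4c, at percentiles 99.4, 97.4 and 20.4. The Zscan4 genes form a cluster of near-identical members on chromosome 7 that act in telomere and genome stability. The 3 peaks held the first base of the transcript, on 5′UTRs of 204 nt. Of the 4 2C genes with a DMSO peak, none had a 5′UTR peak, which with so few genes allows a share of up to 49.0% (Wilson). In bulk RNA, more cells that express a gene and more RNA per cell cannot be told apart, and a peak needs enough RNA to be called. Over all coding genes with a peak, 8.96% in the DMSO list (521 of 5813) and 8.47% in the Dox list (396 of 4677) had a 5′UTR peak.

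Among pluripotency genes, 6 of 21 had a 5′UTR peak in the DMSO and 4 of 19 in the Dox list. Tbx3, a transcription factor of naive ESCs, carried an identical 150-nt peak at percentile 92.3 in the DMSO and 93.6 in the Dox list. Zfp42 (also named Rex1) had one of 200 nt at percentile 74.8 and of 175 nt at 88.2, close to the transcript start. Klf4, a reprogramming factor, had the divided peak described above, and Dppa5a had peaks of 119 and 44 nt. Klf5 (150 nt, percentile 42.1) and Nanog (25 nt, percentile 1.75) had a 5′UTR peak in the DMSO list only.

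Of stress-response genes and genes controlled by upstream reading frames, 5 of 20 had a 5′UTR peak in the DMSO and 7 of 19 in the Dox list (36.8%, 19.2 to 59.0%), with median 5′UTRs of 304 and 328 nt against 175 and 176 nt over all genes with a peak. The 5 found in both were Hsp90aa1, Atf5, Ppp1r15b, Amd1 and Mycn. Atf5, a transcription factor of the stress response whose translation depends on upstream reading frames, had the same 100-nt peak in both, at percentiles 97.4 and 95.9, with neither GGAC nor DRACH. Ppp1r15b, a cofactor in eIF2α dephosphorylation, had 1 peak of 350 nt in the DMSO list, which overlapped Dox peaks of 300 and 25 nt. Amd1, a polyamine synthesis enzyme, stood at percentiles 67.1 and 93.1, and its peaks had 3 near-identical loci. The HSP70 genes Hspa1a and Hspa1b had a 5′UTR peak in the Dox list only, at percentiles 17.9 and 36.5 with peaks of 50 and 25 nt. Both genes had DMSO peaks outside the 5′UTR class, and the Hspa1b peak had a near-identical locus.

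Of cytosolic ribosomal protein genes, 3 of 69 (4.35%) had a 5′UTR peak in the DMSO and 7 of 65 (10.8%, 5.32 to 20.6%) in the Dox list. Their median 5′UTR was 102 nt. Rpl36al, Rps18 and Rpl38 were in both lists, Rps18 with the same 50-nt peak at percentiles 97.5 and 97.5. The 4 with a 5′UTR peak in the Dox list only were Rpl41, Rpl17, Rps27l and Rpl35, and 3 of them (Rpl41, Rpl17 and Rpl35) had near-identical loci. The same 3 genes also had DMSO peaks outside the 5′UTR class. The Rpl41 5′UTR peak itself overlapped a DMSO peak, as described above, so that it was not new after Dox. Ribosomal protein genes are known to have many processed pseudogenes. Of translation factors, 4 of 49 and 4 of 42 had a 5′UTR peak, the same genes in both lists. They were Eif1, which helps select the start codon, Eif3g, a subunit of eIF3, Eif4g2 and Eif6. Eif3g had an identical 50-nt peak over the start codon, at percentile 75.9 in the DMSO and 97.1 in the Dox list.

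Of m6A writers, erasers and readers, 4 of 21 had a 5′UTR peak in the DMSO and 2 of 21 in the Dox list. Igf2bp1, a reader that stabilises its targets, had one of 350 nt at percentile 70.8 in the DMSO list and of 325 nt at 80.9 in the Dox list. Hnrnpa2b1, a nuclear RNA-binding protein, had one at percentiles 85.3 and 70.7. The demethylase gene Alkbh5 and the reader gene Ythdf2 carried DMSO peaks of 100 nt centred 2 and 6 nt before the start codon. Dox peaks overlapped both but were centred in the coding sequence, so that these genes left the 5′UTR class without losing the peak.

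In 4 larger gene families, the share with a 5′UTR peak was between 6.12% and 14.1%. Zinc-finger genes had a 5′UTR peak in 14 of 142 cases in the DMSO and 6 of 98 in the Dox list, and all 6 were also found in the DMSO list. They were Zfp42, Zfp57, which protects imprinted methylation, Zfp91, Zfp217, Zfp664 and Zfp740. On Zfp664 a DMSO peak of 550 nt overlapped 3 Dox peaks. Of chromatin genes, 8 of 67 and 8 of 60 had one, with 6 in both, among them Ep300, a histone acetyltransferase, at percentiles 69.5 and 89.5 for its best peak in each list, and Tet2, which oxidises 5-methylcytosine, at 85.8 and 72.7. Solute carriers had one in 11 of 83 and 7 of 63, and ubiquitin genes in 13 of 92 and 9 of 82, with 7 and 8 in both lists. Slc20a2 had the best score of the solute carriers in both lists, with the same 225-nt peak at percentiles 98.2 and 97.0.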

How the data were processed

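MeRIP-seq libraries of E14 cells (2 IP and 2 input per treatment, 24 h of DMSO or Dox) were filtered by the authors with fastp 0.19.4, aligned to mm10 with HISAT2 2.2.1, and peaks were called with exomePeak2, whose version, settings and combining of replicates are not given in the sources used here. The deposited BED lists hold each peak's exon blocks, in steps of 25 nt, and a score column, taken to be the authors' −log10 p-value because it starts at 10 and 4 values are infinite. Scores were compared only as percentiles within a list. Depth per library was not analysed here, and a deeper library gives more peaks.

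Peaks were placed on GENCODE M21 (GRCm38), 1 transcript per gene. Inner block edges lay at annotated exon edges in 99.8% of cases in each list. Motifs were searched on the peak's strand in its blocks, both strands being given where stated. Near-identical loci were found with blastn 2.17.0. Python 3.11.15 was used (numpy 2.4.6 for medians, scipy 1.17.1 for intervals, matplotlib 3.10.9 for figures). Wilson, Newcombe and Poisson intervals cover counting error only. The steps were tested on simulated peaks. The genes named were those of the 10 best-scoring, 6 best list-only and 5 longest peaks, up to 5 genes with most peaks, and up to 12 members of each of the gene lists that carried a 5′UTR peak. A gene that this rule would name is not reported here. Members and lists were chosen with earlier results of these data known. Alternatives covered the score threshold, transcript, overlap, list size, window, motif and near-identical loci.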

Additional observations from a re-analysis of the deposited data

How the results depend on the processing

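Of 89 alternative values of 14 results, 56 stayed within the main interval or within 1.5 times the main count, 32 moved beyond it and 1 reversed. The DMSO over Dox ratio was above 1 in 6 of 7 settings, and the exception was equal list sizes, at 0.882, where the shared shares were 74.7% (DMSO) and 72.0% (Dox). With a score of at least 15 in both lists, the shared shares fell to 41.4% and 51.5%, the 5′UTR share of peaks was 4.57% and 6.36%, GGAC was held by 48.3% and 45.6%, the first 100 nt were touched by 52.9% and 63.2%, and 83 and 65 genes, 34 in both, remained. With the whole peak inside the 5′UTR, the shared shares were 51.3% and 80.3%, the 5′UTR shares 1.95% and 2.18%, and 304 and 220 genes, 157 in both, carried a peak. Overlap of 50% of the peak gave 54.6% shared in the DMSO list, 50% of both peaks 49.1% and 65.7%, and overlap with a 5′UTR peak only 78.9% in the Dox list. Counting any peak on the gene in the other list put 535 genes in both. DRACH in place of GGAC gave 69.2% and 67.4%, and Dox peaks of 75 to 150 nt held GGAC in 57.1%. The first 50 nt were touched by 22.3% and 24.6% of peaks and the first 200 nt by 57.9% and 61.3%. The cause of these moves was not tested, beyond the fewer peaks or wider windows that a setting itself brings. No paired analysis was possible because the replicates of a treatment come as 1 combined list, and for the same reason no replicate could be left out. The number of peaks limits the precision, above all for gene lists with few members.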
